A study of Sorghum bicolor with 14 samples.

Results

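The course of 3 gene IDs of sorghum was traced from before pollination to the 30-day seed: Sobic.009G001600, assigned as the beta-kafirin gene, Sobic.002G211700, assigned as the gamma-kafirin gene, and Sobic.002G211501, which stands directly before the gamma-kafirin ID when the table is sorted by ID. They were chosen by ID, and all 3 were found among the 31337 genes of the authors' deposited table. The table pairs its IDs with no names, and 0 of them occur in the reference gene table. The names beta- and gamma-kafirin therefore come from background knowledge and were not checked against an annotation, and the third ID is left without a name.

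Kafirins are the prolamins of sorghum, seed proteins that store nitrogen in the starchy endosperm and are packed into protein bodies derived from the endoplasmic reticulum. Alpha-kafirins fill the core of these bodies. Beta- and gamma-kafirins are rich in cysteine, form disulfide cross-links, and lie mainly at the surface of the bodies and in inclusions within them, where they are known to limit the digestion of the alpha-kafirins by proteases.

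The material was Sorghum bicolor M35-1 grown in the open field, in 5 stages and 14 libraries with no treatment or genotype contrast. The stages were the pistil at 1 to 2 days before pollination (1-2 DBP, 3 libraries) and material at 0 to 2 (3 libraries), 10 (3 libraries), 20 (3 libraries) and 30 days after pollination (DAP, 2 libraries). The 0-2 DAP libraries carry pistil as source and seed as tissue. The labels give a cultivar entry to the libraries of the first 2 stages, while the growth protocol names M35-1 for every library. Separate plants are not named for the libraries of any stage.

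Each stage has 1 deposited value per gene, in transcripts per 1000000 (TPM), a unit that divides reads by gene length and scales every column to the same total. How the libraries of a stage were combined is not given in the sources used here. There is no replicate error, no difference below has a replicate check, and no p-value could be computed. Read depth per gene is not known from TPM values. In seeds that hold several tissues, fewer endosperm cells and less RNA per cell cannot be told apart.

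Beta-kafirin, Sobic.009G001600, was listed at 0 TPM at 1-2 DBP, then at 0.140 (0-2 DAP), 39549 (10 DAP), 45724 (20 DAP) and 22.5 TPM (30 DAP). Its 2 seed stages at 10 and 20 DAP stood far above the other 3. By rank among all 31337 genes, with 1 for the highest TPM, it was 2 at 10 DAP, 3 at 20 DAP and 3216 by 30 DAP.

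Gamma-kafirin, Sobic.002G211700, had values of 0.0334 (1-2 DBP), 0.0954 (0-2 DAP), 33697 (10 DAP), 67112 (20 DAP) and 36.6 TPM (30 DAP). The same 2 stages were high, with 20 DAP above 10 DAP. Its rank was 3 at 10 DAP, 2 at 20 DAP and 2090 by 30 DAP. Ahead of both kafirin IDs at 10 and at 20 DAP stood Sobic.005G184700, an ID of the chromosome 5 region that holds alpha-kafirin genes.

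The ID neighbour, Sobic.002G211501, was listed at 0 TPM at both 1-2 DBP and 0-2 DAP, and reached 2320 (10 DAP), 8357 (20 DAP) and 1.69 TPM (30 DAP). It was high in the same 2 stages as the kafirin IDs, at a lower level. Its rank was 36 at 10 DAP, 14 at 20 DAP and 13980 by 30 DAP. Whether this ID shares sequence, and so reads, with gamma-kafirin was not tested.

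**Figure D1:**
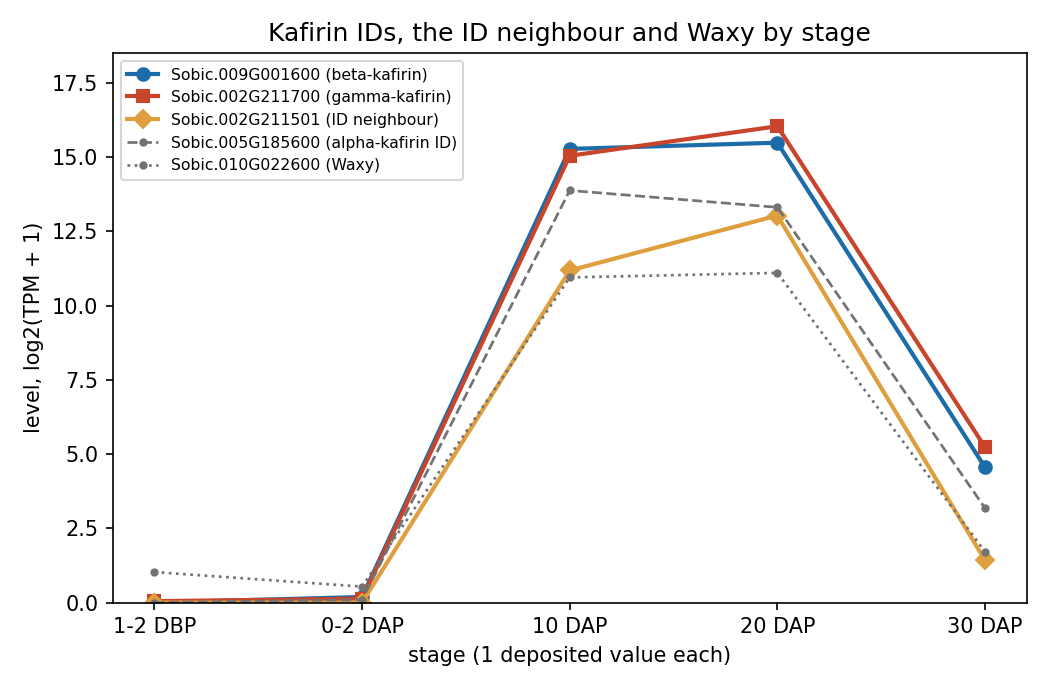
Level on the log2(TPM + 1) scale, 1 deposited value per stage, for beta-kafirin, gamma-kafirin, the ID neighbour, the alpha-kafirin ID Sobic.005G185600 and Waxy, Sobic.010G022600. All 5 lines are near the bottom in the first 2 stages, high at 10 and 20 DAP and low again at 30 DAP, where gamma-kafirin (36.6 TPM) and beta-kafirin (22.5 TPM) end highest.

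Nearly all of the 5-stage total of each ID lay at 10 and 20 DAP. The portion was 99.97% for beta-kafirin, 99.96% for gamma-kafirin and 99.98% for the ID neighbour. Among 3070 genes that reached 100 TPM in some stage, 57 had at least 99.9% of their total in these 2 stages, or 1.86%. Within the pair of stages the IDs were divided differently. Beta-kafirin had 46.4% of its total at 10 DAP and 53.6% at 20 DAP. Gamma-kafirin had 33.4% and 66.5%. The ID neighbour had 21.7% and 78.3%, the most uneven split of the 3.

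As a share of all TPM, beta-kafirin made up 3.95% at 10 DAP and 4.57% at 20 DAP. Gamma-kafirin made up 3.37% and 6.71%, and the ID neighbour 0.232% and 0.836%. The 3 IDs together made up 7.56% at 10 DAP, then 12.1% at 20 DAP and 0.00608% by 30 DAP. After quantile normalization the first 2 of these were 5.58% and 5.95%, and without the 100 most abundant other genes they were 10.4% and 20.4%. The 85 IDs from Sobic.005G184400 to Sobic.005G193200, a chromosome 5 range that contains alpha-kafirin IDs and other genes, held 14.5%, 19.0% and 0.0411% at those stages. For each TPM in that range the 3 IDs thus had 0.522 TPM (10 DAP) and 0.637 TPM (20 DAP).

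The order of beta- and gamma-kafirin turned between 10 and 20 DAP. A ratio within 1 stage does not change when whole columns are multiplied by a factor, as in median-ratio scaling, though it does under quantile normalization. Gamma-kafirin over beta-kafirin was 0.852 at 10 DAP, then 1.47 at 20 DAP and 1.63 by 30 DAP. Beta-kafirin was thus the higher of the pair at 10 DAP and gamma-kafirin at 20 and 30 DAP, with no replicate error to set against these ratios.

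The ID neighbour did not keep a fixed proportion to gamma-kafirin. It was at 6.88% of the gamma-kafirin TPM at 10 DAP, then at 12.5% (20 DAP) and 4.61% (30 DAP). Against beta-kafirin it was at 5.87%, 18.3% and 7.51%. At 20 DAP the ID neighbour was highest relative to both kafirin IDs.

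**Figure D2:**
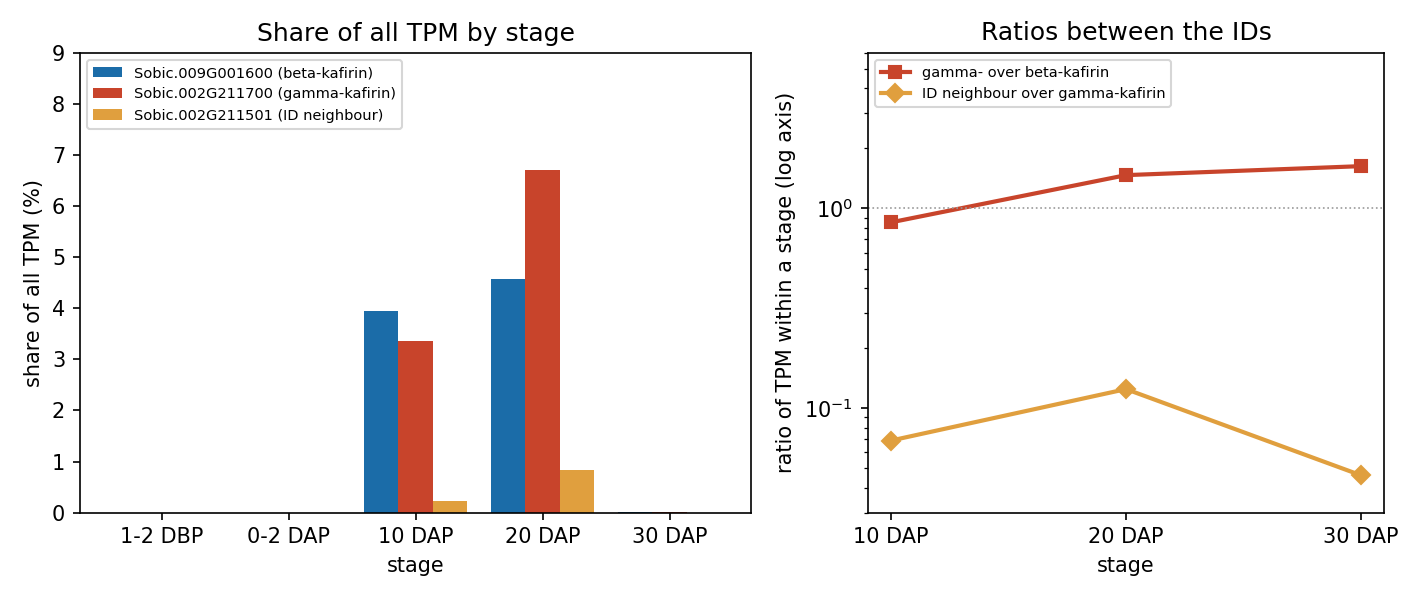
Left, share of all TPM in percent held by each of the 3 IDs at each stage, with bars too small to see before 10 DAP and at 30 DAP. Right, the ratio of TPM within a stage on a log axis, where gamma- over beta-kafirin goes from 0.852 at 10 DAP to 1.47 at 20 DAP and the ID neighbour over gamma-kafirin is highest at 20 DAP.

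Stages were compared on the log2(TPM + 1) scale over the 24404 genes that reached 1 TPM in some stage. All 3 IDs passed that filter, through their values at 10 and 20 DAP and, for each of them, also at 30 DAP. A difference of at least 2-fold on this scale counted as higher or lower. Around pollination, 0-2 DAP against 1-2 DBP, 0 of the 3 IDs were counted in either direction, while 8.82% of all genes were higher and 6.5% lower. No ID was above 0.140 TPM in either stage.

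At 10 DAP all 3 IDs were counted as higher than at 0-2 DAP, as were 11.0% of all genes, and 39.7% of all genes were lower. These background shares depend on the scaling. As deposited 2678 genes were higher against 9697 lower, where median-ratio scaling gave 4820 against 3761 and quantile normalization 4373 against 4823, with all 3 IDs higher under each. The median difference was 14.91 for the 3 IDs and -0.72 for all genes. Beta-kafirin had the second and gamma-kafirin the third largest positive difference of all genes, at 15.08 and 14.91. These sizes depend on the pseudocount because the earlier values are so low. With 0.1 TPM they were 17.33 and 17.40, in the opposite order, and with 5 TPM they were 12.91 and 12.69. For the ID neighbour, listed at 0 TPM at 0-2 DAP, no fold is given. Accession numbers fall into 2 separate blocks that part between 0-2 and 10 DAP, and an effect of block cannot be told apart from one of stage.

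Between 10 and 20 DAP the 3 IDs differed from each other. The ID neighbour was 3.60-fold higher at 20 DAP, the 1 ID of the 3 past the 2-fold rule, which 4.23% of all genes met in that direction and 18.8% in the other. Over all genes 1033 were higher and 4586 lower as deposited. Median-ratio scaling gave 1980 higher and 2147 lower genes, and quantile normalization 2007 and 2207. Gamma-kafirin was 1.99-fold higher, just short of the rule, with a log2 difference of 0.99. Gamma-kafirin passed after median-ratio scaling, at 1.61, and without the 100 most abundant other genes, at 1.28. Beta-kafirin was 1.16-fold higher as deposited, a log2 difference of 0.21. The direction for beta-kafirin depends on the scaling, with 0.83 under median-ratio scaling and -0.45 under quantile normalization. Gamma-kafirin, at 0.45, and the ID neighbour, at 1.32, were higher at 20 DAP under quantile normalization also. The median difference over all genes was -0.47 as deposited, -0.0029 under median-ratio scaling and -0.0027 under quantile normalization.

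At 30 DAP all 3 IDs were counted as lower than at 20 DAP, as were 28.2% of all genes, while 9.03% were higher. As deposited 2204 genes were higher against 6890 lower, where median-ratio scaling gave 4683 against 5030 and quantile normalization 4629 against 4155, with all 3 IDs lower under each. The median difference was -10.93 for the 3 IDs and -0.42 for all genes. The ID neighbour had the largest negative difference of all 24404 genes, -11.60, and was 4946-fold lower in TPM. Beta-kafirin was 2033-fold lower, with the eighth largest negative difference. Gamma-kafirin was 1833-fold lower, with the twelfth largest.

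**Figure D3:**
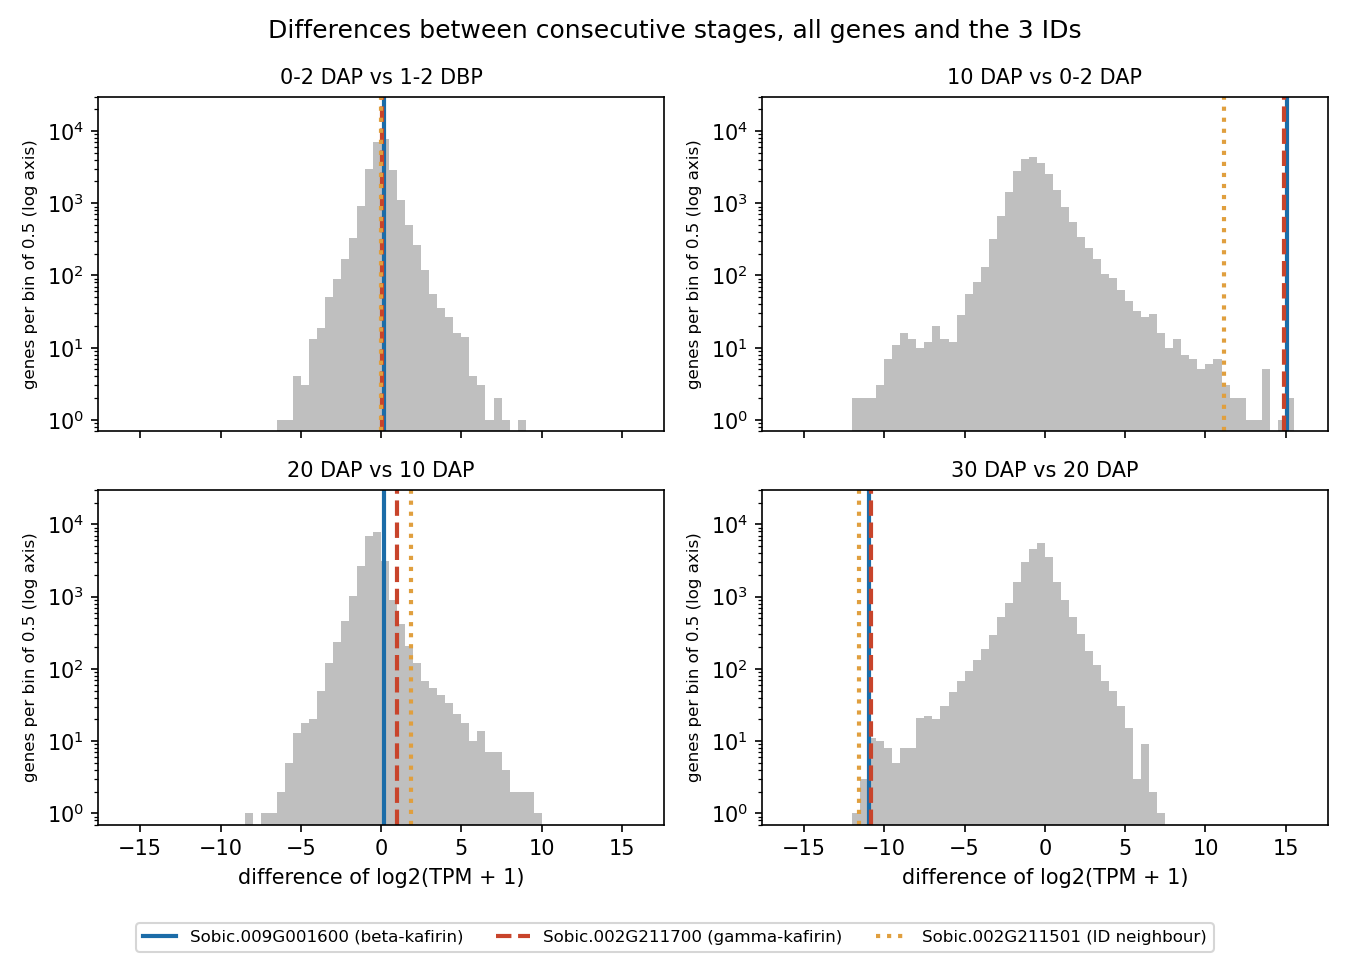
Number of genes, on a log axis, per bin of 0.5 in the difference of log2(TPM + 1) between consecutive stages, for 24404 genes in grey, with a vertical line for each of the 3 IDs. The lines lie within the bulk for 0-2 DAP against 1-2 DBP, at the right edge for 10 DAP against 0-2 DAP (15.08 for beta-kafirin), apart from each other for 20 DAP against 10 DAP, and at the left edge for 30 DAP against 20 DAP (-11.60 for the ID neighbour).

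In spite of these differences the kafirin IDs were not among the scarce transcripts at 30 DAP. Gamma-kafirin, at 36.6 TPM, and beta-kafirin, at 22.5 TPM, were among the 3513 genes, or 11.2% of the table, with at least 20 TPM at that stage, where the median gene had 1.07 TPM. Against 0-2 DAP the 30 DAP values differed by 4.37 for beta-kafirin and 5.10 for gamma-kafirin on the log2(TPM + 1) scale. No plain fold is given, since values as low as those at 0-2 DAP cannot be separated from sampling. All 3 IDs were counted as higher at 30 DAP than at 0-2 DAP, as were 7.99% of all genes, while 65.1% were lower. This comparison was chosen after the values were seen and was not rerun under other scalings, pseudocounts or filters. How far its counts and shares depend on them was not tested. The median-ratio size factors of these stages differ, at 1.88 (0-2 DAP) and 0.410 (30 DAP). These stages also lie in separate blocks of libraries, and an effect of block was not tested. The ID neighbour was listed at 0 TPM at 0-2 DAP and had 1.69 TPM at 30 DAP.

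The 3 IDs belong to a set of 195 genes whose values at 10 and 20 DAP were 20 TPM or more and exceeded every other stage 10-fold or more. This set was defined from the values and is described without a test. They made up 23.7% of the TPM of this set at 10 DAP and 29.5% at 20 DAP. Gamma-kafirin had the highest TPM of the 195 at 30 DAP and beta-kafirin the third highest. These and Sobic.005G184700, at 30.8 TPM, were the 3 genes of the set with at least 20 TPM at that stage, and 47 of the 195 were listed at 0.

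What was left at 30 DAP, as a percentage of the 20 DAP value, was 0.0546% for gamma-kafirin, 0.0492% for beta-kafirin and 0.0202% for the ID neighbour. The median of the 195 genes was 0.0694%, and 108, 115 and 140 of them had more left than these IDs in that order. By remainder all 3 IDs lay below the median of the set, while by TPM at 30 DAP the kafirin IDs lay at its top. The ratio of 20 DAP to 10 DAP had a median of 0.844 over the 195 genes, below the 1.16 of beta-kafirin, the 1.99 of gamma-kafirin and the 3.60 of the ID neighbour. Of the 195, 68 had a higher ratio than beta-kafirin, 25 a higher ratio than gamma-kafirin and 10 a higher ratio than the ID neighbour.

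The alpha-kafirin region contributed 20 of its 85 IDs to the 195 genes, picked by the same rule on their values. Among these 20 the ratio of 20 DAP to 10 DAP ran from 0.332 to 3.34 around a median of 1.60. Without that rule, 50 IDs of the region reached 1 TPM in some stage. Some of them passed this filter only through 10 and 20 DAP, where they were high, which raises the count of higher IDs at 10 DAP. At 10 DAP against 0-2 DAP 23 of the 50 were higher and 11 lower, beside 11.0% and 39.7% of all genes. At 20 DAP against 10 DAP 5 were higher and 11 lower, beside 4.23% and 18.8% of all genes. The median log2 difference of the 50 was then -0.26. At 30 DAP against 20 DAP 1 was higher and 32 lower, beside 9.03% and 28.2% of all genes. The counts of the region were not recomputed under other scalings. The single alpha-kafirin ID listed by name, Sobic.005G185600, had values of 0 (1-2 DBP), 0.0690 (0-2 DAP), 15003 (10 DAP), 10121 (20 DAP) and 8.06 TPM (30 DAP). Its ratio of 20 DAP to 10 DAP was 0.675, below 1, where those of the beta- and gamma-kafirin IDs were above 1 as deposited.

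**Figure D4:**
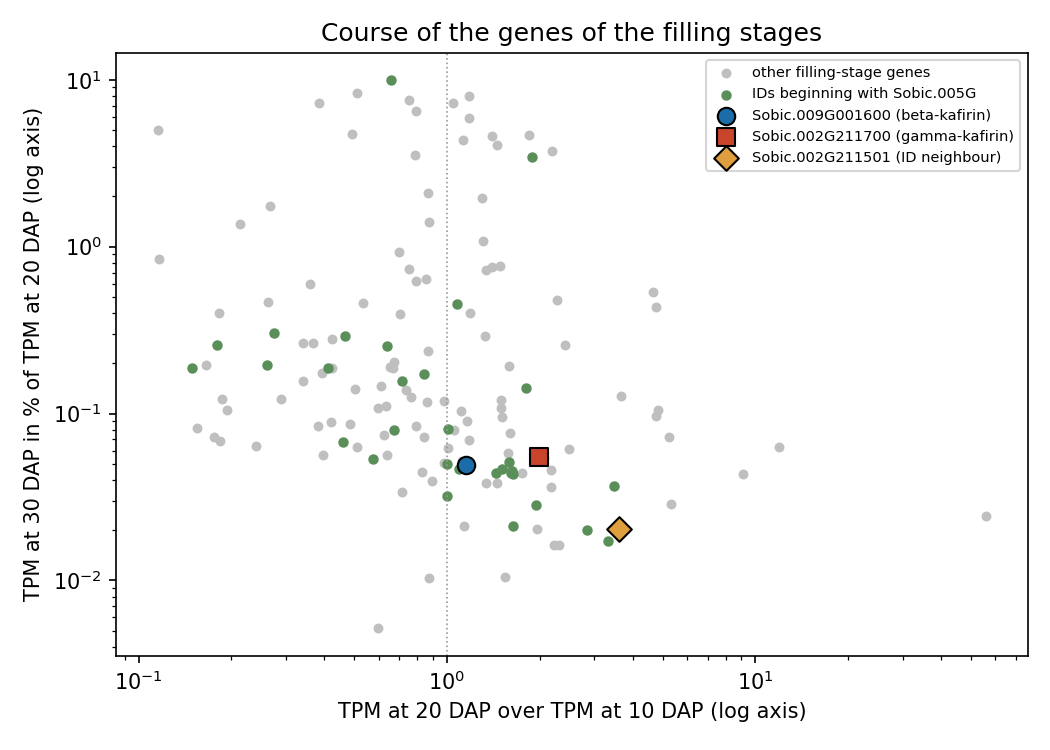
Ratio of TPM at 20 DAP to 10 DAP (log axis) against TPM at 30 DAP in percent of TPM at 20 DAP (log axis) for the 195 genes high at both filling stages, without the 47 listed at 0 TPM at 30 DAP, with IDs beginning with Sobic.005G in green. Beta-kafirin (1.16), gamma-kafirin (1.99) and the ID neighbour (3.60) lie to the right of 1, with 0.0492%, 0.0546% and 0.0202% left.

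Starch synthesis fills the same endosperm cells, and 7 IDs listed for it were set beside the kafirin IDs. At 10 DAP 5 of the 7 were counted as higher than at 0-2 DAP, as were 11.0% of all genes. Their median difference was 2.15 on the log2(TPM + 1) scale, beside -0.72 over all genes. Median-ratio scaling raised the count to 6 of the 7, with a median of 3.01. Quantile normalization likewise gave 6, with a median of 2.72. The 0-2 and 10 DAP libraries belong to separate blocks, as stated above. Waxy, Sobic.010G022600, which encodes granule-bound starch synthase and makes amylose, had 1.04, 0.452, 1971, 2191 and 2.28 TPM over the 5 stages in order. It was the ID of the list closest to the kafirin course. The other 6 were present in the pistil at 5.99 to 209 TPM at 1-2 DBP, where the kafirin IDs were at 0.0334 TPM or listed at 0. At 20 DAP 4 of the 7 were counted as lower than at 10 DAP, with a median of -1.15, as were 18.8% of all genes. That count rests on the scaling, with 0 of the 7 lower after median-ratio scaling and 1 of the 7 after quantile normalization. All 7 were counted as lower at 30 DAP than at 20 DAP, with a median of -5.34, as were 28.2% of all genes. After median-ratio scaling 6 of the 7 were lower.

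The same values served to check the tissue. Of 5 IDs taken as marks of filling endosperm, Sobic.005G185600 and Waxy were at 1.04 TPM or below in the first 2 stages and at 1971 TPM or more at 10 and 20 DAP. The other 3, Sobic.003G230500 and Sobic.007G101500 for subunits of ADP-glucose pyrophosphorylase, the enzyme that makes the sugar donor for starch, and Sobic.004G163700 for starch branching enzyme IIb, were at 17.7 to 118 TPM before 10 DAP. At 10 DAP these 3 had 418, 526 and 229 TPM in that order, each counted as higher than at 0-2 DAP. At 20 DAP they had 188, 179 and 79.0 TPM. They rose with the other 2 at 10 DAP, but their presence alone does not set the endosperm apart from the pistil. No marker IDs of the embryo, the seed coat or the pistil were at hand.

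The genes most similar in course were sought among the 3067 other genes with at least 100 TPM in some stage. Each gene's 5 values were divided by their sum, and 2 courses were compared by the summed absolute differences divided by 2, which is 0 for equal courses and 1 for courses without overlap. Nearest to beta-kafirin were Sobic.001G274025, at 0.0018, Sobic.002G028100, at 0.00447, and Sobic.007G083300, at 0.00536. Waxy was the fourth nearest, at 0.0101. Nearest to gamma-kafirin were Sobic.005G184600, at 0.00531, Sobic.009G010150, at 0.0070, and Sobic.001G326000, at 0.0188. Nearest to the ID neighbour were Sobic.005G193700, at 0.0055, Sobic.001G166500, at 0.00567, and Sobic.005G192801, at 0.0132. The median over all compared genes was 0.728 for both kafirin IDs and 0.734 for the ID neighbour. These are descriptions over 5 points, with nothing known here of shared function. By ID order Sobic.005G184600 and Sobic.005G192801 lie within the alpha-kafirin region, which also holds other genes.

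The 3 IDs were less alike than these nearest genes, which were picked as the smallest differences among 3067 genes. The differences among the 3 IDs were still below the medians of 0.728 and 0.734 over all compared genes. The course difference between beta- and gamma-kafirin was 0.130, and 62 of the 3067 genes were nearer to beta-kafirin than gamma-kafirin was. Between gamma-kafirin and the ID neighbour it was 0.117, with 36 genes nearer to gamma-kafirin. Between beta-kafirin and the ID neighbour it was 0.247. The alpha-kafirin ID Sobic.005G185600 was at 0.133 from beta-kafirin, 0.263 from gamma-kafirin and 0.380 from the ID neighbour. It does not stand for the whole alpha-kafirin region, where Sobic.005G184600 was at 0.00531 from gamma-kafirin.

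The genes around these IDs in ID order were far lower. The 5 rows before and after each ID in ID order hold 20 further genes, of which none exceeded 436 TPM at 10 or 20 DAP. Next to beta-kafirin, Sobic.009G001500 had 143 (1-2 DBP), 216 (10 DAP) and 92.8 TPM (30 DAP). Sobic.009G001200, Sobic.009G001400, Sobic.009G001766, Sobic.009G001900 and Sobic.009G002000 reached between 21.1 and 90.1 TPM at their highest. Near gamma-kafirin, Sobic.002G212000 went from 618 TPM at 1-2 DBP to 102 TPM at 30 DAP, and Sobic.002G211800 from 75.2 to 9.95 TPM. Sobic.002G211300, 2 rows before the ID neighbour, had 1.20 (10 DAP), 87.5 (20 DAP) and 119 TPM (30 DAP). The other 11 genes stayed at 0.112 to 20.0 TPM at their highest. ID order stands for position only roughly, since no genome of the table's annotation was used.

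Because TPM columns share a fixed total, the 3 IDs also lower the values of other genes. Leaving them out would raise every other TPM 1.08-fold at 10 DAP and 1.14-fold at 20 DAP. The median difference over all genes then became -0.62 in place of -0.72 for 10 DAP against 0-2 DAP, and -0.55 in place of -0.42 for 30 DAP against 20 DAP. On the log2 scale these factors are 0.11 and 0.19.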

How the data were processed

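RNA from 14 libraries in 5 stages was sequenced, and the authors deposited 1 TPM value per gene and stage, per the file headers. HISAT2, featureCounts 2.2.0 and DESeq2 are named without roles in the submitters' processing notes, while build and annotation version are not given there or in the file headers. Per the labels' protocols, kits from TruSeq (stranded, total RNA) and NEBNext (directional) were used, without saying for which libraries. Each column summed to 1000000, so depth is unknown and no counting interval is given.

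Differences were taken on the log2(TPM + 1) scale among genes of at least 1 TPM in 1 stage and counted from 2-fold. Nearest courses and the 5 ID neighbours on each side were named by rule (ID neighbours from 20 TPM), as were the listed IDs. Other IDs, Sobic.005G184700 and those reached by the 195-gene set among them, were chosen after their values were seen. The members, lists and rules were chosen with earlier results of these data known, and list assignments were not checked against an annotation. The fold rule, size factors and course measure were checked on simulated data without noise. For the fold rule, changes well past 2-fold were placed in genes of at least 20 TPM. These checks do not cover values near 0 TPM or differences near 2-fold. Python 3.11.15, numpy 2.4.6, pandas 2.3.3 and matplotlib 3.10.9 were used. Alternatives were other pseudocounts, filters and scalings.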

Additional observations from a re-analysis of the deposited data

How the results depend on the processing

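No paired analysis was possible because each stage has a single deposited value, and leaving out each replicate was not run for the same reason. The number of IDs past 2-fold was recomputed under 7 alternatives for each pair of consecutive stages and moved in 3 of 28 cases. With no filter and with a filter of 5 TPM, 4 cases each, this number could not move, since the IDs pass either way. Between 1-2 DBP and 0-2 DAP it was 1 in place of 0 with a pseudocount of 0.1 TPM, through beta-kafirin (log2 difference 1.26 between 0 and 0.140 TPM). Between 10 and 20 DAP it was 2 in place of 1 with median-ratio scaling and also without the 100 most abundant other genes, through gamma-kafirin. The summed share of the 3 IDs at 20 DAP was 20.4% without the 100 most abundant other genes and 5.95% after quantile normalization, and at 30 DAP 0.0113% and 0.0115%. The first of these shrinks the total by construction, and quantile normalization replaces each value by a mean over the columns. Gamma- over beta-kafirin stayed within 1.5 times under the alternatives run, quantile normalization and a pseudocount of 1 TPM. Both keep the order of genes within a stage. The ratio could therefore not cross 1, and its side of 1 was not tested. The ID neighbour over gamma-kafirin was 0.111, 0.203 and 0.0957 at 10, 20 and 30 DAP after quantile normalization, still highest at 20 DAP, and 0.0715 at 30 DAP with a pseudocount of 1 TPM. Among 84 log2 differences of the IDs, 18 shifted by over 1.5-fold, and no sign changed past 2-fold. The 12 with no filter and the 12 with a filter of 5 TPM could not shift. The nearest 3 genes were the same under median-ratio scaling, while the correlation of log2(TPM + 1) over the 5 stages named none of those 3 for any of the IDs. By correlation the nearest gene was Sobic.005G184700 for both kafirin IDs and Sobic.005G186300 for the ID neighbour, each in the alpha-kafirin region. The remaining genes named by correlation were of that region for beta-kafirin only. Counts over all genes moved by more than 1.5 times in 22 of 56 cases. The recomputation without the 3 IDs and that of the starch synthesis counts under other scalings were chosen after seeing the data. Without replicates or depth, the values below 1 TPM cannot be separated from sampling.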
